A study of Mus musculus with 8 samples.

Results

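The comparison described here sets oxidized against non-oxidized RNA of the mouse insulinoma line MIN6B1 (MIN6 in the sample titles) after transfection with a plasmid that encodes the methyltransferase HENMT1ΔC-T6B. Its members are 4 of the series' 8 libraries, 2 from non-oxidized and 2 from oxidized RNA, chosen by their labels alone. The other 4 libraries come from the same line with a control plasmid, again 2 from non-oxidized and 2 from oxidized RNA, and serve as the background. All 8 libraries share the cell line, Lipofectamine transfection and QIAseq small RNA cloning from 5 ng of RNA. For every library the labels give 4 hours with the transfection complex and 24 to 72 hours of incubation, without the time of each. Oxidation was with sodium periodate (NaIO4). Transfection was transient, so the cells of a culture need not all carry the plasmid, and the carrying share was not analysed here. Nothing in the labels says that libraries of 1 group came from separate cultures, so p-values measure the spread between these libraries, which may be technical.

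MicroRNAs (miRNAs) are small RNAs that Argonaute proteins hold and use to find target messenger RNAs through the seed, the stretch near the 5′ end that pairs with the target. Periodate opens the free 3′ sugar of an RNA and blocks its cloning, whereas a 2′-O-methyl group at the 3′ end protects it. HENMT1 is the animal enzyme that adds this group to piRNAs, and T6B is a peptide that binds Argonaute, so the fusion brings the methyltransferase to Argonaute-held RNAs. The question of the comparison is how evenly the mature miRNAs of these cells were retained through oxidation once the fusion was present. Log2 retention below is the log2 ratio of the mean oxidized to the mean non-oxidized count, after each library was scaled on its mature miRNA counts. A value of 0 stands for the level this scaling sets, and within 1 pairing of libraries the difference between 2 miRNAs or sequences does not depend on it.

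The sequences below are the most abundant form of miRNAs at the ends of the range, shown because retention is described further on by the last bases. They are written as deposited, with T for U, and capitals mark the seed (bases 2 to 8) and the last 2 bases. The first 4 were among the least retained, and the next 5 among the well retained. MiR-122-5p, also among the least retained, ends in UU and is not printed.
miR-16-5p: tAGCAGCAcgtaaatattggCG
miR-30e-5p: tGTAAACAtccttgactggaAG
miR-30a-5p: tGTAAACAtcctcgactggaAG
miR-130b-3p: cAGTGCAAtgatgaaagggcAT
let-7c-5p: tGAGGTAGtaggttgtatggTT
let-7b-5p: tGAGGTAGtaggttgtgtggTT
miR-3099-3p: tAGGCTAGagagaggttgggGA
miR-30a-3p: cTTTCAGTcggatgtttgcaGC
miR-30e-3p: cTTTCAGTcggatgtttacaGC
By seed, miR-30e-5p and miR-30a-5p share one, as do let-7c-5p and let-7b-5p, and as do the 3p arms of miR-30a and miR-30e. The mature positions are from RefSeq on GRCm38.p6, whose table holds 99 of the 117 miRNA rows described below under the same name, and the host genes are from GENCODE on the same assembly. The gene Mir16-1 has miR-16-5p at chr14:61631936-61631957 on the minus strand, in an intron of the noncoding Dleu2. Its second copy, Mir16-2, lies at chr3:69009918-69009939 in an intron of Smc4. The 2 arms of Mir30e lie at chr4:120772660-120772681 (5p) and chr4:120772618-120772639 (3p) in an intron of Nfyc, and those of Mir30a at chr1:23272274-23272295 and chr1:23272315-23272336 outside any other annotated gene of that strand. The copies of let-7c-5p lie at chr16:77599672-77599693 in an intron of Mir99ahg and at chr15:85706616-85706637 in an exon of Lncppara. An exon of the same Lncppara holds let-7b-5p at chr15:85707325-85707346. Introns of 2610318N02Rik and Usp29 hold miR-130b-3p (chr16:17124071-17124092) and miR-3099-3p (chr7:6803638-6803659).

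The deposited table lists 11568 distinct sequences, of which 652 are mature miRNA sequences that sum to 179 miRNA rows. Of these rows 172 carry 1 name and 7 carry several, because a short sequence fits more than 1 miRNA. The listed mature counts were 2250284 and 3048034 in non-oxidized and 2045732 and 1643283 in oxidized methyltransferase RNA, or 61.6% to 62.4% and 66.0% to 67.2% of the listed counts. The mature share of oxidized control RNA was 3.14% and 3.43%. In the oxidized methyltransferase pair no listed sequence falls below 2 counts per library or below 10 summed over both, so sequences lost below that level are not listed and the sums per miRNA leave them out. The beta cell markers miR-375-3p, miR-7a-5p, miR-7b-5p and miR-153-3p together made up 20.4% to 21.7% of mature counts in non-oxidized and 11.6% to 13.5% in oxidized methyltransferase RNA. Of 14 markers of liver, neuron, muscle, blood, exocrine pancreas and mesenchyme, 12 were not listed. The other 2, miR-122-5p and miR-124-3p, together held 0.024% to 0.046% of non-oxidized and 0.0025% to 0.0032% of oxidized mature counts.

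Retention was uneven. Among the 117 miRNA rows with a mean of at least 100 counts in non-oxidized methyltransferase RNA, which hold 99.9% of the mature counts, log2 retention ran from -4.57 for miR-16-5p to 2.34 for a 16-base sequence shared by let-7a, let-7b and let-7c. The median was -0.73. Let-7c-5p, the most abundant miRNA in this RNA, was retained 61.5-fold better than miR-16-5p. Over the 117 rows, retention had an SD of 1.41, against 0.46 between the 2 non-oxidized libraries and 0.71 between the 2 oxidized libraries on the same scale. The same SD between non-oxidized RNA of the 2 plasmids was 0.52. Both oxidized libraries lay below both non-oxidized libraries for 68 of the 117, above them for 28, and overlapped them for 21. Over all 1568 rows with that mean count, 35.8% lay below and 45.2% above. These counts and the median hang on where the scaling puts 0. In the fit on this scale the median over tested mature miRNAs was -0.35, but 1.06 without the first non-oxidized control library and 0.92 without the second non-oxidized methyltransferase library, so the balance of lower and higher miRNAs is not fixed by these data.

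**Figure D1:**
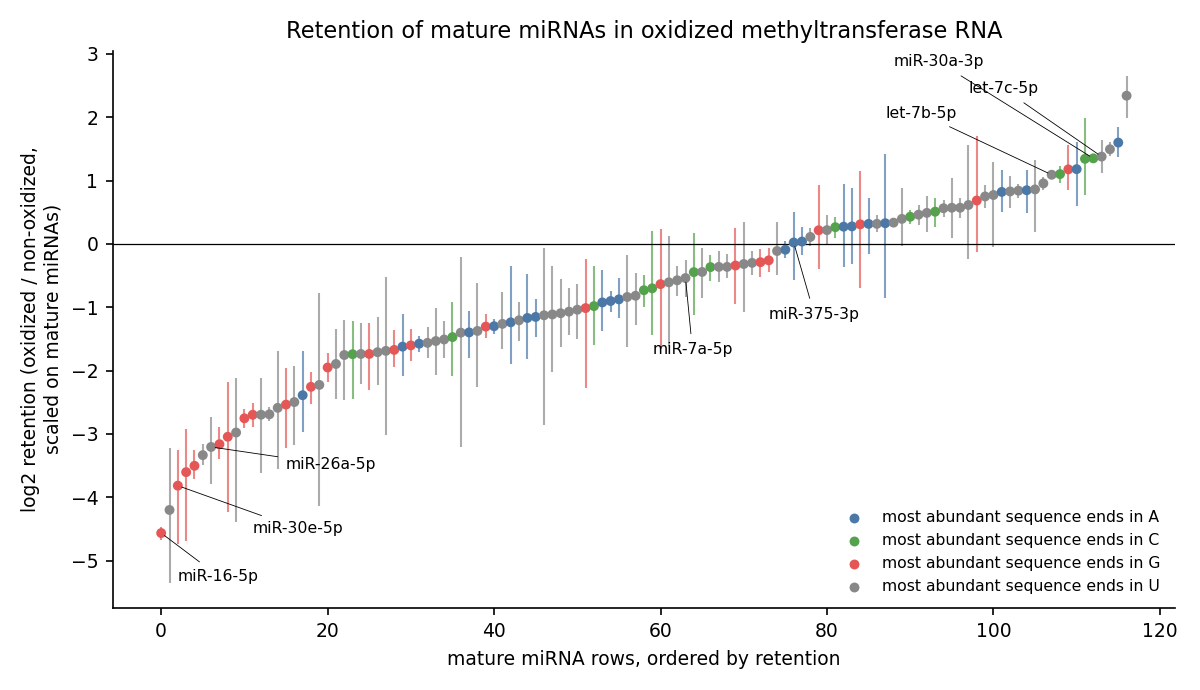
Log2 retention (y axis) of the 117 described mature miRNA rows, ordered from the least to the best retained (x axis). Points are ratios of means, bars span the 4 pairings of 1 oxidized with 1 non-oxidized library, and colours give the last base of the most abundant sequence. MiR-16-5p lies lowest at -4.57, and let-7c-5p lies near the top at 1.38.

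In the fit scaled on the whole table, in which most sequences are no miRNAs, 88 of 177 tested mature miRNAs fell upon oxidation and 0 rose (adjusted p under 0.05, edgeR's quasi-likelihood test). Of all 9421 rows tested, 9.63% fell and 1.6% rose (907 and 151 rows, but 522 and 925 with total listed counts as the scale). The number of mature miRNAs that fell was 50 with total counts (3 rose), and 56 or 58 without the first or the second oxidized library. With the scale set on mature miRNAs, 24 of the 177 were called lower and 3 higher, against 3.99% lower and 23.4% higher of all rows. DESeq2 size factors as the scale gave 24 lower and 23 higher, against 367 lower and 4622 higher of all 9421 rows. Those calls are fragile: leaving out either oxidized methyltransferase library left 0 in both directions, and leaving out the first non-oxidized control library gave 68 higher and 8 lower. Without the first non-oxidized methyltransferase library 0 were higher and 3 lower, and without the second 37 and 7. Without the first or the second oxidized control library 12 were higher, and 42 or 41 lower. These shifts ran through the whole table. On this scale the median log2 change over all rows was 1.54. It was 2.98 without the first non-oxidized control library and 2.85 without the second non-oxidized methyltransferase library. Differences between miRNAs, which no scale moves within a pairing of libraries, are therefore given first below.

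Among the 10 most abundant miRNAs 4 of the let-7 family took a larger share of mature counts after oxidation in both libraries, and miR-16-5p all but disappeared. The let-7 family restrains growth regulators such as Lin28 and Ras. Let-7c-5p had 543803 and 790354 counts in non-oxidized and 823614 and 694965 in oxidized methyltransferase RNA. Its share of mature counts was 24.2% and 25.9% before and 40.3% and 42.3% after oxidation, with no overlap. Let-7b-5p held 13.2% and 13.1% before and 19.2% and 16.6% after. Let-7a-5p held 7.65% and 7.85% before and 8.33% and 8.21% after. The shares of let-7i-5p were 3.50% and 3.50% before and 4.91% and 3.80% after, again without overlap. Let-7f-5p, by contrast, went from 4.82% and 4.91% to 4.36% and 4.16%, and let-7g-5p from 3.90% and 4.03% to 2.83% and 2.62%. Shares and retention are scaled differently, and log2 retention was 0.46 for let-7f-5p, with both oxidized libraries above both non-oxidized ones, and 0.11 for let-7g-5p.

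MiR-375-3p, which restrains insulin secretion and marks pancreatic islets, had 306894 and 333259 counts before and 125760 and 153599 after oxidation. Its share went from 13.6% and 10.9% to 6.15% and 9.35%, and its log2 retention of 0.02 spanned -0.58 to 0.50 over the 4 library pairings. MiR-7a-5p, another islet miRNA, held 5.38% and 6.04% before and 3.04% and 2.04% after. For miR-7b-5p, which differs little from it in sequence, the shares were 2.73% and 3.38% before and 2.44% and 2.12% after. MiR-16-5p, a repressor of cyclins and other cell cycle genes, had 154425 and 199198 counts before and 3770 and 2882 after oxidation. Its share went from 6.86% and 6.54% to 0.184% and 0.175%. In the whole-table scaling it fell by 5.99 ± 0.37 (SE) on the log2 scale (adjusted p = 5.77e-06, edgeR), whereas let-7c-5p had -0.06 ± 0.31 (adjusted p = 0.927). On that scale miR-375-3p fell by 1.43 ± 0.35 (adjusted p = 0.0226, edgeR) and miR-7a-5p by 1.95 ± 0.36 (adjusted p = 0.00409).

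Of the 6 least retained miRNAs named by rule, 4 end in G in their most abundant form, beside 21 of the 112 miRNA rows with a described sequence. MiR-30e-5p and miR-30a-5p belong to a broadly expressed seed family. MiR-30e-5p had 907 and 1153 counts before and 58 and 14 after oxidation, a log2 retention of -3.82. MiR-30a-5p had 754 and 829 before and 53 and 12 after, a retention of -3.60. MiR-138-5p, best known from neurons, had 1960 and 1854 counts before and 91 and 63 after, a retention of -3.50. These groups did not overlap, although the 2 oxidized libraries differed several-fold for both miR-30 members. MiR-130b-3p had 5824 and 8761 counts before and 374 and 268 after (-3.34), with a most abundant form ending in AU. MiR-122-5p, the liver miRNA, had 888 and 642 counts before and 33 and 9 after (-4.20), although it ends in UU. All 6, miR-16-5p included, fell in the whole-table scaling, miR-122-5p with the widest error (-5.52 ± 0.71 SE, adjusted p = 0.000538, edgeR).

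Only 2 rows qualified by the same rule as best retained. One was let-7c-5p, at 1.38. The other was the 16-base sequence shared by let-7a, let-7b and let-7c, with 175 and 197 counts before and 426 and 402 after oxidation. That short sequence had 816 and 440 counts in oxidized control RNA, against 291 and 275 in non-oxidized control RNA, so it was also kept by oxidation without the methyltransferase. Outside the rule, and picked with their values in view, miR-3099-3p was high with 2250 and 3675 counts before and 4581 and 3340 after (1.60), as was miR-505-5p with 143 and 168 before and 228 and 166 after (1.49).

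Seed families showed whether miRNAs with the same targeting sequence were retained alike, and all lists here were chosen with earlier results of these data known. The 9 members of let-7/miR-98 lay between 0.11 and 1.38 with a median of 0.57, beside -0.73 for all 117 rows. In each of the 9 the most abundant form ends in UU. In the miR-15/16 family 4 of 6 members were described, from -4.57 for miR-16-5p over miR-15a-5p (-2.59) and miR-15b-5p (-2.39) to miR-497a-5p (-1.40). MiR-195a-5p was below 100 counts, and miR-322-5p was not listed. Both miR-26 members were low, miR-26a-5p at -3.21 and miR-26b-5p at -1.90, as were miR-130b-3p at -3.34 and miR-130a-3p at -2.69. MiR-26a-5p had 36038 and 52541 counts before and 1835 and 2224 after oxidation. Of the 23 lists of families and functions, 4 had no described member.

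The miR-30 family spread widely on 1 seed. MiR-30e-5p (-3.82), miR-30a-5p (-3.60) and miR-30d-5p (-2.75) end in AG in their most abundant form. MiR-30b-5p (-1.69) ends in CU, and miR-384-5p (-0.32) in GU. MiR-30c-5p, below the 100-count minimum, ends in GC and had a retention of 0.15, spanning -1.05 to 1.39 over the library pairings. The pairings of miR-30b-5p (-3.01 to -0.53) and miR-384-5p (-1.07 to 0.34) overlapped, whereas those of miR-30d-5p (-2.90 to -2.60) lay below both miR-384-5p and miR-30c-5p.

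Of the 12 miRNAs on the beta cell list 10 were described, with a median of -0.49. They ran from miR-141-3p (-1.95) to miR-200c-3p (1.18), both of the miR-200 group, which guards epithelial identity. MiR-141-3p had 6995 and 7686 counts before and 941 and 757 after oxidation. MiR-200c-3p had 27854 and 34239 before and 25853 and 33796 after. Between them lay miR-200a-3p (-1.71), miR-96-5p (-1.40), miR-183-5p (-1.21), miR-7a-5p (-0.54), miR-429-3p (-0.44), miR-182-5p (-0.29), miR-375-3p (0.02) and miR-7b-5p (0.22). On the mature miRNA scale 2 of the 10 were called lower and 0 higher, beside 24 and 3 of all 177 mature miRNAs, and none of these calls held with either oxidized methyltransferase library left out. Of 5 miRNAs made without the usual nuclear or cytoplasmic cut, miR-320-3p (0.85), miR-1224-5p (0.31) and miR-484 (-1.13) were described.

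Retention differed by the last base of the sequence. Sequences ending in G held 15.5% and 15.2% of mature counts in non-oxidized and 3.15% and 3.54% in oxidized methyltransferase RNA. In control RNA they held 16.2% and 15.5% before and 24.1% and 23.6% after oxidation. Sequences ending in U went from 70.3% and 73.3% to 88.6% and 85.3% with the methyltransferase, and from 67.6% and 71.4% to 56.9% and 53.5% with the control plasmid. The share ending in A went from 12.7% and 10.1% to 6.61% and 9.88%, and that ending in C from 1.54% and 1.38% to 1.64% and 1.26%. The groups of 2 did not overlap for G, U and A, and overlapped for C. An exact two-sided permutation test of 2 libraries against 2 cannot go below p = 0.333, which G, U and A reached (adjusted 0.389 over 7 such shares and lengths). Without the 5 most abundant miRNAs the G share still changed by -10.5 percentage points (-12.0 with them) and the U share by 5.41 (15.2 with them), while the A share turned from -3.18 to 2.98.

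**Figure D2:**
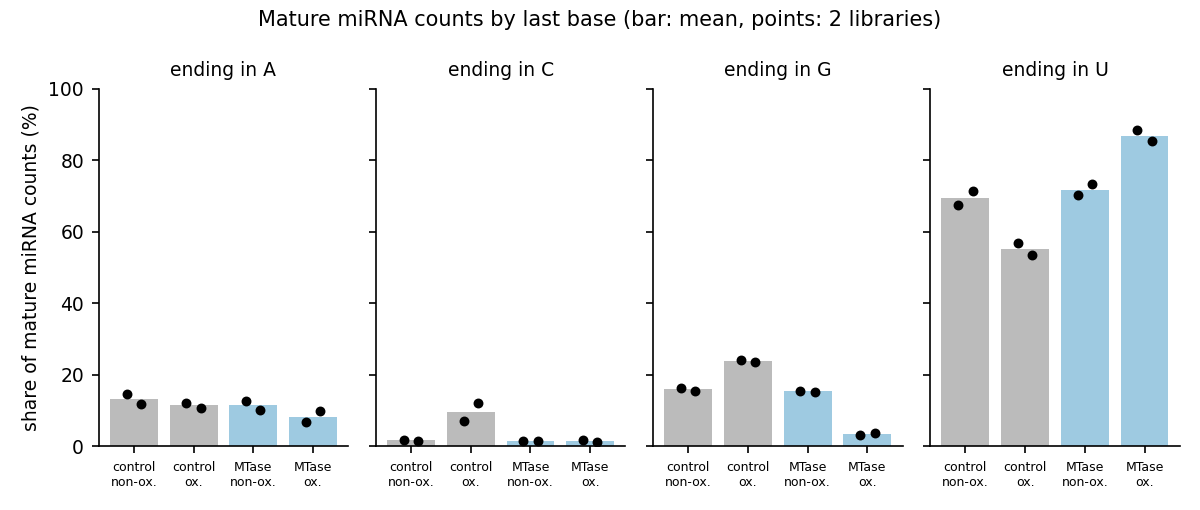
Share of mature miRNA counts in percent (y axis) by the last base of the sequence, 1 panel per base, in the 4 groups (x axis). MTase is the methyltransferase plasmid and ox. is oxidized, bars are means and points are the 2 libraries. The G share is 3.15% and 3.54% in oxidized methyltransferase RNA and above 15% in all other libraries.

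Single sequences gave the same order with each sequence counted once. Among the 305 mature sequences with a mean of at least 100 counts, from 112 miRNA rows, the median log2 retention was -2.12 for the 83 ending in G, -0.69 for the 52 ending in A, -0.40 for the 36 ending in C and 0.04 for the 134 ending in U. Both oxidized libraries lay below both non-oxidized ones for 70 of the 83 ending in G, against 57 of the 134 ending in U. Over all 1756 sequences of the table with that mean count the share was 37.8%. In the fit per sequence on the whole-table scale, 251 of 607 tested mature sequences fell and 0 rose (edgeR), against 11.2% and 1.75% of all sequences. With total listed counts as the scale 145 fell and 15 rose, and without the first oxidized methyltransferase library 167 fell. Of the described sequences, 74 of 83 ending in G fell, 33 of 52 ending in A, 20 of 36 ending in C and 65 of 134 ending in U. The authors' deposited table calls 256 of the 652 mature sequences lower and 0 higher in this comparison, and 244 of them are among the 251.

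The base before the last, a grouping chosen after the values were seen, separated the sequences further. Median retention was -3.06 for 45 sequences with A there, -1.94 for 49 with C, 0.08 for 116 with G and -0.01 for 95 with U. Among sequences ending in G, the median was -3.38 for the 24 ending in AG and -3.67 for the 12 ending in CG, but -1.28 for the 18 ending in GG and -1.48 for the 29 ending in UG. All 24 ending in AG had both oxidized libraries below both non-oxidized ones. Sequences ending in U divided likewise, with medians of -2.58 for 10 ending in AU, -1.95 for 18 ending in CU, 0.10 for 55 ending in GU and 0.84 for 51 ending in UU. The 17 ending in GC had a median of 1.00. Sequences of 1 miRNA share most of their bases, so the medians were also taken over 1 sequence per miRNA. They were then -2.57 for G, -0.69 for A, 0.25 for C and -0.46 for U as the last base, and -3.04, -2.26, -0.30 and 0.02 for A, C, G and U before it. Among those ending in U they were -2.86 for 6 in AU, -1.69 for 9 in CU, -0.40 for 20 in GU and 0.36 for 21 in UU. The UU group ran from -6.10 to 1.29. It holds the most abundant forms of all 9 let-7/miR-98 members, so its median leans on 1 seed family.

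**Figure D3:**
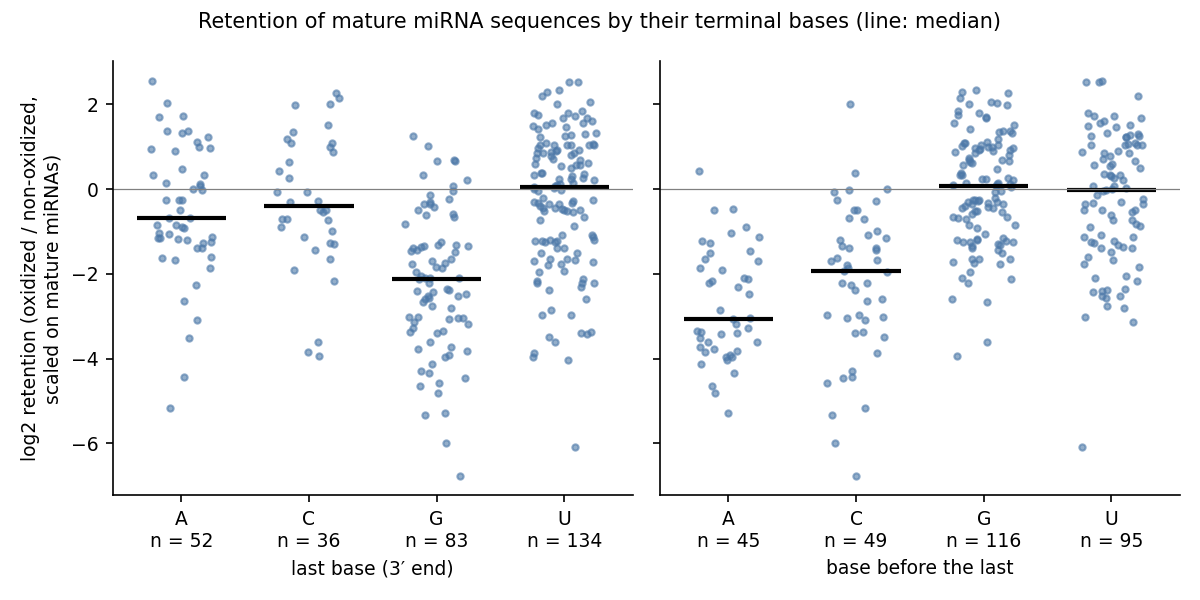
Log2 retention (y axis) of the 305 described mature sequences by their last base (left) and by the base before it (right). Each point is 1 sequence, black lines are medians and n is the number of sequences. The medians are lowest for G as the last base (-2.12) and for A before it (-3.06).

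Exceptions occurred in both directions. The retained sequences of miR-375-3p and miR-200c-3p that end in G, at 1.26 and 1.01, have U and G before it. Short let-7c-5p forms ending in GG and UG were at 0.67 and 0.65. The UG form, of 19 bases, also kept 533 and 343 counts in oxidized control RNA, against 892 and 1170 in non-oxidized control RNA. On the other side the 21-base miR-122-5p, which ends in UU, had 791 and 553 counts before and 8 and 2 after oxidation, a retention of -6.10.

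Where sequences of 1 miRNA share the 5′ end and differ by 1 base in length, the longer has 1 added base at its 3′ end. Such a pair differs in length, and both its last base and the base before it can differ. The isoforms below are such forms, with the last 2 bases in capitals. MiR-182-5p, miR-138-5p and miR-30a-3p came from the rule for the largest length differences, and miR-16-5p, let-7a-5p and miR-191-5p were chosen after their values were seen.
miR-16-5p, 20 bases: tagcagcacgtaaatattGG
miR-16-5p, 21 bases: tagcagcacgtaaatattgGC
miR-16-5p, 22 bases: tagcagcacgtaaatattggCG
miR-16-5p, 23 bases: tagcagcacgtaaatattggcGT
miR-182-5p, 23 bases: tttggcaatggtagaactcacAC
miR-182-5p, 24 bases: tttggcaatggtagaactcacaCC
miR-182-5p, 25 bases: tttggcaatggtagaactcacacCG
miR-182-5p, 26 bases: tttggcaatggtagaactcacaccGG
miR-138-5p, 22 bases: agctggtgttgtgaatcaggCC
miR-138-5p, 23 bases: agctggtgttgtgaatcaggcCG
miR-138-5p, 24 bases: agctggtgttgtgaatcaggccGT
miR-30a-3p, 21 bases: ctttcagtcggatgtttgcAG
miR-30a-3p, 22 bases: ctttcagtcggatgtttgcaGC
let-7a-5p, 19 bases: tgaggtagtaggttgtaTA
let-7a-5p, 20 bases: tgaggtagtaggttgtatAG
let-7a-5p, 21 bases: tgaggtagtaggttgtataGT
let-7a-5p, 22 bases: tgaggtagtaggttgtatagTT
miR-191-5p, 20 bases: caacggaatcccaaaagcAG
miR-191-5p, 21 bases: caacggaatcccaaaagcaGC
miR-191-5p, 22 bases: caacggaatcccaaaagcagCT
miR-191-5p, 23 bases: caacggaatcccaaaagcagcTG
The 23-base miR-16-5p, the 26-base miR-182-5p and the 24-base miR-138-5p match only the precursor in the deposited annotation and are not in the mature sums. The positions of those not yet given are chr6:30165962-30165986 for miR-182-5p, chr9:122682898-122682920 and chr8:94324312-94324334 for the copies of miR-138-5p, chr13:48538239-48538260 for Mirlet7a-1 and chr9:108568325-108568347 for miR-191-5p (RefSeq, GRCm38.p6). Of these, miR-182-5p lies in no other annotated gene of its strand and the rest lie in exons of noncoding genes or pseudogenes.

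For miR-16-5p the 22-base form ending in CG carried 94.4% of its non-oxidized counts and was the least retained of the 4 forms printed. It had 145502 and 188275 counts before and 2389 and 1386 after oxidation, a retention of -5.34. The 21-base form ending in GC had 6174 and 7553 before and 1039 and 1338 after (-1.30). One base longer, the 23-base form had 4139 and 4477 before and 921 and 601 after (-1.37). The forms on either side of the main one were thus retained better than it in all 4 library pairings, and the pairings of the 22-base form (-5.47 to -5.22) did not meet those of the 21-base form (-1.86 to -0.88).

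MiR-182-5p, of a cluster known from sensory cells, differed most over 1 base among pairs of mature sequences. Its 24-base form, ending in CC, had 551 and 766 counts before and 1144 and 1138 after oxidation (2.00). The 25-base form, ending in CG, had 2187 and 2730 before and 53 and 46 after (-4.45), a difference of -6.46. With a further G, the 26-base form had 113 and 113 before and 85 and 54 after (0.42). MiR-138-5p behaved alike: its 22-base form had 226 and 205 before and 64 and 55 after (-0.70), and its 23-base form ending in CG had 1678 and 1575 before and 12 and 3 after (-6.76). The 24-base form with an added U, which is the one ending in GT above, had 510 and 470 before and 187 and 121 after (-0.56).

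The reverse step, in which the longer form no longer ends in G, came with higher retention. MiR-30a-3p of 21 bases, ending in AG, had 286 and 361 counts before and 2 and 12 after oxidation (-4.14), and its 22-base form, ending in GC, had 464 and 575 before and 1164 and 698 after (1.97), a difference of 6.11. MiR-421-3p differed by 5.67 between 22 bases (ending in CG, 562 and 946 before, 14 and 13 after) and 23 bases (ending in GC, 826 and 971 before, 1112 and 639 after). Let-7a-5p dipped at 20 bases, where it ends in AG, with 4656 and 7293 before and 341 and 209 after (-3.29). Its 21-base form had 29995 and 43942 before and 40741 and 27714 after (1.05), and its 22-base form had 135474 and 185640 before and 126593 and 104816 after (0.71). The 19-base form was at 1.73, but it also kept 280 and 160 counts in oxidized control RNA, against 331 and 607 in non-oxidized control RNA. For miR-191-5p retention was -4.66 at 20 bases (AG), 0.87 at 21 (GC), -0.28 at 22 (CU) and -1.38 at 23 (UG).

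**Figure D4:**
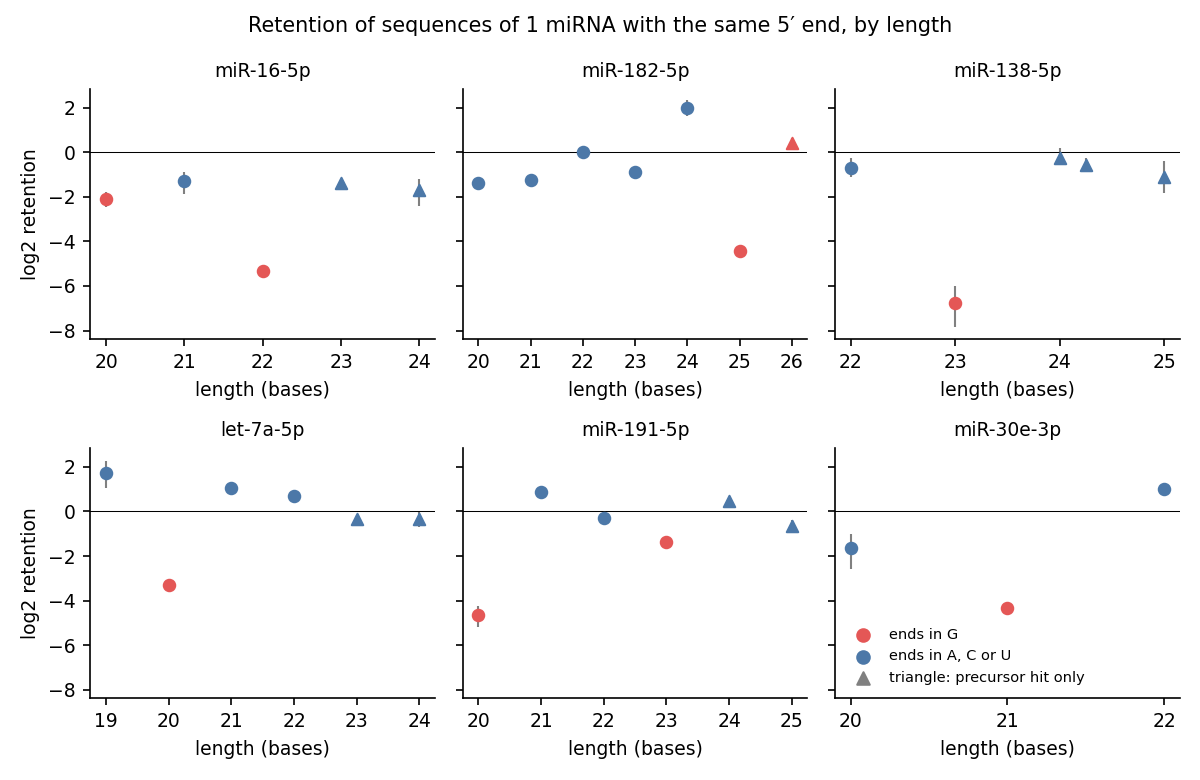
Log2 retention (y axis) of sequences of 6 miRNAs with a common 5′ start, by length in bases (x axis). Red marks sequences ending in G, blue all others, triangles mark sequences with a precursor hit only (2 at 24 bases for miR-138-5p, set apart), and bars span the 4 library pairings. The red points at 22 bases for miR-16-5p, 25 for miR-182-5p and 23 for miR-138-5p lie at -5.34, -4.45 and -6.76.

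Over all miRNAs, 150 pairs of mature sequences from 63 miRNAs shared the 5′ end and differed by 1 base. In 80 of them exactly 1 sequence ended in G, and that one was the less retained in 70, with a median difference of -2.07. In 64 of the 80 it was lower in all 4 library pairings, and in 6 it was higher in all 4. The terminal G lay on the longer sequence in 30 of the pairs (lower in 24, median -2.26) and on the shorter in 50 (lower in 46, median -2.01). In pairs with the G on the shorter sequence, the longer one has that G before its last base. Pairs of 1 miRNA share a sequence in part and are not independent. The longer sequence of all 150 pairs was higher by a median of 0.37 and lower in 58. Within the 69 miRNAs with at least 2 described sequences, the best and the least retained sequence differed by a median of 2.86, and by 6.46 at most, in miR-182-5p.

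**Figure D5:**
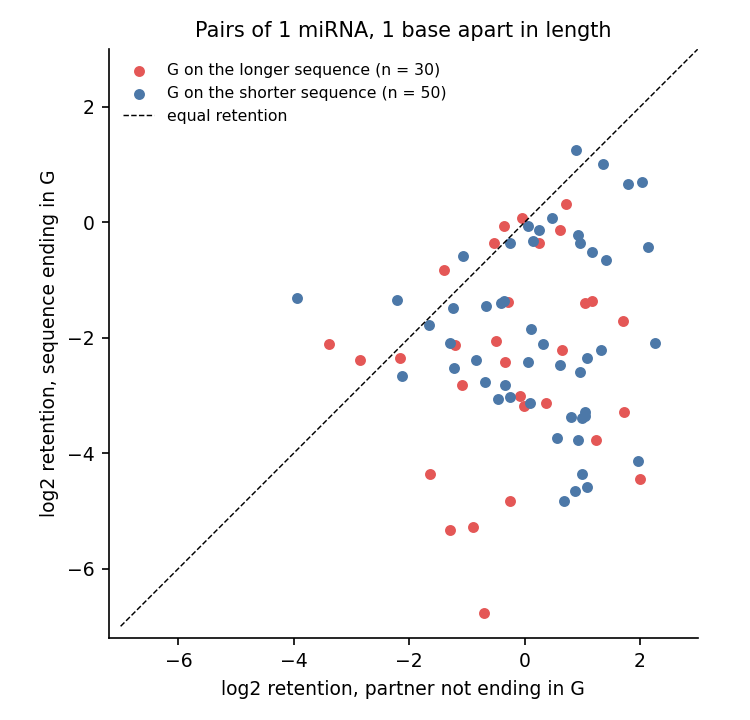
Log2 retention of the sequence ending in G (y axis) against that of its partner (x axis), for the 80 pairs of 1 miRNA that differ by 1 base and of which exactly 1 ends in G. Red points have the G on the longer and blue points on the shorter sequence. Points below the dashed line of equal retention, 70 of 80, have the lower retention on the sequence ending in G.

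Mean length weighted by counts was 21.88 and 21.90 bases in non-oxidized and 21.84 and 21.83 in oxidized methyltransferase RNA, against a drop from 21.92 and 21.95 to 19.20 and 19.22 in control RNA. The share longer than 22 bases went from 10.02% and 10.98% to 7.04% and 6.14%. Median retention was -0.51 for 37 sequences of 19 bases or fewer, -1.64 for 43 of 20, -0.76 for 84 of 21, -0.53 for those of 22 -0.33 for 33 of 23 and 0.47 for the 7 of 24 or more. The gap between the lowest and the highest of these medians was about as wide as that between last bases G and U. The highest, however, rests on 7 sequences of 5 miRNAs. Over 1 sequence per miRNA the medians were -0.58 (19 or fewer, n = 4), -1.21 (20, n = 3), -1.24 (21, n = 22), -1.08 (22, n = 58), -0.33 (23, n = 21) and -0.44 (24 or more, n = 4). These lay closer together than G and U did over 1 sequence per miRNA (-2.57 and -0.46). At 22 bases the median was -2.49 for 26 sequences ending in G and 0.49 for 45 ending in U. At 20 bases it was -2.09 for 21 ending in G and -1.43 for 12 ending in U.

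By arm, the median was -0.56 for 70 rows of the 5p arm and -0.98 for 45 of the 3p arm, with quartiles of -1.67 to 0.42 and -1.58 to 0.33. Over 1 sequence per miRNA the order turned, with -0.87 for 67 of the 5p arm and -0.70 for 44 of the 3p arm. The 5p share of mature counts was 82.6% and 85.8% before and 91.5% and 87.5% after oxidation (exact p = 0.333, adjusted 0.389). That change of 5.30 percentage points turned to -1.25 without the 5 most abundant miRNAs. Within the 57 sequences of the 5p arm ending in G the median was -2.09, and within the 105 ending in U it was 0.37. For the 3p arm the medians were -2.32 for 26 ending in G, -1.23 for 28 ending in U, -0.90 for 29 ending in A and -0.06 for 17 ending in C. On the 5p arm those ending in A and C were at -0.26 and -0.70, so U ranked highest on that arm only.

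In 10 precursors both arms had at least 100 counts, and the 5p arm was the less retained in 6. MiR-30a and miR-30e differed most. Their 5p arms were at -3.60 and -3.82, with the counts given above. Their 3p arms, with 871 and 1078 counts before and 1385 and 875 after oxidation for miR-30a-3p and 1193 and 1536 before and 917 and 715 after for miR-30e-3p, were at 1.35 and 0.43. The most abundant 5p forms end in AG and the 3p forms in GC. On the whole-table scale miR-30a-5p fell by 4.93 ± 0.60 (SE, adjusted p = 0.00035, edgeR), and miR-30a-3p had -0.07 ± 0.38 (adjusted p = 0.938).

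The next precursors differed in the other direction or by less. MiR-325-5p was at 0.68 with 136 and 73 counts before and 76 and 77 after, and miR-325-3p at -1.47 with 1564 and 1449 before and 226 and 250 after. MiR-200a-5p was at 0.04 with a mean of 142 counts before and 79 and 51 after, and miR-200a-3p at -1.71 with 330 and 266 before and 43 and 39 after. MiR-28a-5p was at -0.64 with 186 and 143 before and 36 and 55 after, and miR-28a-3p at 0.82 with 225 and 408 before and 310 and 189 after. The arms of each of these 5 precursors kept their order in all 4 library pairings, although several arms had fewer than 100 counts in an oxidized library. Over the 10 precursors the median difference, 5p minus 3p, was -0.58, and -0.37 without the first non-oxidized methyltransferase library.

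Set against the control plasmid, and on the whole-table scale, nearly all listed mature miRNAs lost far less to oxidation in methyltransferase RNA. Every listed sequence has at least 2 counts in each oxidized methyltransferase library. In oxidized control RNA, 396 and 436 of the 652 mature sequences had 0 counts. The listing thus favours a higher interaction, so the calls below are in part set by the listing. The interaction of plasmid and oxidation was higher for 171 of 177 mature miRNAs and lower for 0 (edgeR), against 37.6% higher and 3% lower of all rows tested. With total listed counts as the scale 133 were higher and 5 lower, of 1814 and 4067 among all rows. On the whole-table scale miR-16-5p, for all its loss, was among the 171 at 4.82 ± 0.45 (SE, adjusted p = 1.02e-05, edgeR), below let-7c-5p at 9.28 ± 0.50 (adjusted p = 1.96e-06). These sizes depend on that scale. As a share of mature counts miR-16-5p lost less with the control plasmid, from 6.58% and 6.09% to 1.52% and 1.48%. With the methyltransferase it went from 6.86% and 6.54% to 0.184% and 0.175%. In oxidized control RNA miR-16-5p had 210 and 150 counts, let-7c-5p 1870 and 1295, and miR-30a-5p 0 and 0. The 6 miRNA rows without a call were 3 rows of short sequences shared within the let-7 family, the row shared by miR-3473b and miR-3473e, miR-5121 and miR-203-3p. For the miR-3473b/e row, the sum of 4 sequences, the counts were 798 and 1289 before and 69 and 86 after oxidation with the methyltransferase, and 1273 and 1031 before and 92 and 78 after with the control plasmid, an interaction of 0.16 ± 0.57 (SE, adjusted p = 0.877, edgeR). All listed counts were 3100971 and 2446036 in oxidized methyltransferase RNA but 438363 and 295094 in oxidized control RNA. The whole-table scale treats the latter as libraries of 3082508 and 2135680 counts. The interaction of this row depends on that scale, and its raw counts do not show an equal loss.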

How the data were processed

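Small RNA counts came from 8 libraries of MIN6B1 cells, 2 per combination of plasmid and oxidation. The deposited counts are reads per distinct sequence, per the file headers. Aligner, genome build, trimming, the use of molecular identifiers and counting tool are not given in the sources used here. The authors' deposited fold change is a signed score, used for direction only, beside the authors' deposited adjusted p-value. Lines repeating a sequence were merged, and sequences with a mature hit were summed per miRNA. Members and lists were chosen with earlier results of these data known.

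The tests used edgeR 4.0.16 under R 4.3.3 (filterByExpr, TMM, quasi-likelihood test, all 8 libraries, 4 groups), with p-values adjusted over all rows (Benjamini-Hochberg) and called at 0.05. TMM was taken over the whole table or over mature miRNAs only; retention is 1.42 lower (log2) on the whole-table scale. DESeq2 1.42.0 was an alternative. On simulated counts for this comparison (9137 rows tested, 200 changed 8-fold), 131 of 194 tested changed rows (67.5%) were recovered and 7 unchanged rows called. Listed counts ranged from 295094 to 6641250 per library; a count of 0 in the smallest allows a share of up to 0.00102% (3 counts), which covers counting error only.

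Named miRNAs were the 10 most abundant, up to 6 highest and 6 lowest called on the mature miRNA scale with at least 100 counts and no overlap, 5 precursors whose arms and 4 miRNAs whose lengths differed most, and the lists. Precursor-only sequences entered an alternative where they shared 16 bases with a mature form.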

Additional observations from a re-analysis of the deposited data

Results flagged for a closer look

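Oxidation acted differently with the 2 plasmids on 171 of 177 mature miRNAs, all higher with the methyltransferase, by the interaction term of edgeR's quasi-likelihood test. Of all 9421 rows tested, 37.6% were higher and 3% lower. With total listed counts as the scale, 133 mature miRNAs were higher and 5 lower. Every listed sequence has counts in both oxidized methyltransferase libraries, which favours a higher interaction. The sizes below are on the whole-table scale and depend on it. Among the 10 most abundant miRNAs the interaction on the log2 scale was 9.28 for let-7c-5p, 9.02 for let-7a-5p, 8.28 for let-7f-5p, 8.18 for let-7i-5p, 8.13 for let-7g-5p and 7.97 for let-7b-5p. It was 7.45 for miR-375-3p, 7.43 for miR-7b-5p, 5.99 for miR-7a-5p and 4.82 for miR-16-5p. No group has the 4 libraries that a test for a single distant library needs.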

How the results depend on the processing

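The lower retention of sequences ending in G, and the loss of miR-16-5p, kept their direction under every alternative run, while counts of calls moved with the scale that sets 0. Sequences lost entirely are not listed, oxidized control libraries hold few mature counts, and 2 libraries per group limit every test. Where leaving out a library left an arm with 1, that library is assumed to vary like the others. The cause of each change below was not tested.

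Mature miRNAs called on the whole-table scale (0 higher, 88 lower) were 3 and 50 with total counts, 1 higher with at least 10 counts in each methyltransferase library, and 56 to 99 lower when 1 library was left out. On the mature miRNA scale (3 higher, 24 lower) they were 23 higher with DESeq2 size factors, 41 lower with total counts, 15 and 41 with the DESeq2 Wald test, 20 and 40 with only the 4 methyltransferase libraries, 7 higher with precursor-only sequences, 9 and 44 with the most abundant sequence of each miRNA, and 14 higher with at least 10 counts in each methyltransferase library. Leaving out 1 library gave 0 to 68 higher and 0 to 42 lower. The interaction called 5 lower with total counts. Per sequence, total counts gave 15 higher and 145 lower, and leaving out 1 library 0 to 4 higher and 167 to 277 lower.

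With the replicate block the mature miRNA scale gave 5 higher. Same-numbered libraries had correlations of -0.007 to 0.556 over the 6 pairs of groups, so the numbers were not read as pairs; the block moved no other count of calls by over 1.5 times.

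With precursor-only sequences the SD of retention was 1.32 (main 1.41), the median difference for A or C before the last base -1.95 (main -2.30), that of G-ending partners -1.73 (main -2.07) and that of longer sequences 0.18 (main 0.37). With at least 10 counts in each methyltransferase library the first 3 were 1.36, -1.99 and -1.68. With a mean of at least 1000 counts the SD was 1.54, sequences ending in G differed from the others by -2.85 (main -1.86), those with A or C before the last base by -3.50, G-ending partners by -2.47, longer sequences by 0.55, and the arms, where miR-30e alone qualified, by -4.24 (main -0.58). Over 1 sequence per miRNA, an alternative chosen after the data were seen, A or C before the last base gave -2.39. Leaving out 1 library, the SD was 1.39 to 1.49, the difference for G -2.26 to -1.85, that for A or C before it -2.46 to -2.26, and that of the arms -0.70 to -0.37.

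The change of the C share (main -0.01 percentage points) was 0.070 with precursor-only sequences, 0.017 with at least 10 counts, 2.13 without the 5 most abundant miRNAs and -0.20 to 0.18 without 1 library. Without those 5 the 5p share changed by -1.25 and the A share by 2.98.

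Of 441 refits of named miRNAs on the mature scale, 341 kept direction and call, 46 gained a call, 34 lost one and 20 changed sign, all in miRNAs between -0.64 and 0.68. With total counts these were miR-375-3p (-0.67), let-7f-5p (-0.19), let-7g-5p (-0.54), miR-7b-5p (-0.42), miR-30e-3p (-0.23), miR-325-5p (-0.0034), miR-200a-5p (-0.60) and miR-421-3p (-0.37). The most abundant sequence gave -0.04 for let-7g-5p and -0.11 for miR-325-5p, precursor-only sequences -0.0196 for miR-375-3p, and DESeq2 size factors 0.13 for miR-182-5p. Leaving out 1 library gave -0.47 to 1.42 for miR-375-3p, -0.71 to 0.93 for miR-7a-5p, -0.14 to 1.57 for miR-200a-5p, -1.34 to 0.75 for miR-28a-5p and -0.53 to 1.12 for miR-182-5p.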
